A study of Mus musculus with 4 samples.

Results

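The 9 genes described here encode the AMH, inhibin and activin system of the testis: the ligand Amh, the inhibin and activin subunits Inha, Inhba and Inhbb, the secreted activin-binding protein follistatin (Fst), and the receptors Amhr2, Acvr1b, Acvr2a and Acvr2b. They were taken by symbol from the 31017 gene symbols of the deposited matrices, and all 9 were found. Their levels were read in 4 mouse testis libraries of single-cell RNA sequencing, across cell classes set by counts of marker transcripts, with Sertoli cells as the main class.

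Anti-Müllerian hormone (AMH) is a hormone of the TGF-beta family made by Sertoli cells, the nurse cells of the seminiferous tubule. It causes the Müllerian ducts to regress in the male fetus, stays high in the young testis and falls as Sertoli cells mature at puberty. AMH binds the type II receptor AMHR2 and signals through type I receptors of the BMP group and the proteins SMAD1, SMAD5 and SMAD9. Inhibins pair the alpha subunit (Inha) with a beta subunit (Inhba or Inhbb) and lower the release of follicle-stimulating hormone by the pituitary. Activins are dimers of beta subunits only. They bind ACVR2A or ACVR2B, recruit the type I receptor ACVR1B and signal through SMAD2 and SMAD3, and follistatin holds them away from these receptors.

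All mice were C57BL/6 carrying the Acr-Gfp transgene, per the labels, so the control libraries carried it too. Testes taken at 7 days postpartum (dpp) were cut into fragments and cultured on agarose blocks, covered by a PDMS ceiling chip, in α-MEM supplemented with AlbuMAX. This organ culture lasted 2 days for one library and 7 days for the next. The remaining libraries, called in vivo, were made straight from the testes of mice of 9 dpp or 14 dpp. The labels used here do not say how many animals or fragments each library held. In the labels the tissue is testis, although their protocol for library preparation names female gonads, and germ cells with Ldhc and Sertoli cells with Sox9 were found. With 1 library per group, every difference given is between these libraries, has no replicate check and no p-value, and a culture effect cannot be told apart from a library effect. Age plus days of culture match in 2 pairs, the 2-day culture with 9 dpp and the 7-day culture with 14 dpp. Those pairs were compared, and so were the later with the earlier library of each kind.

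The kept cells numbered 6877 after 2 days of culture, 4816 after 7 days, 5150 at 9 dpp and 6195 at 14 dpp, with medians of 3606, 5577.5, 8544.5 and 6447 UMIs (unique molecular identifiers, each standing for 1 captured transcript). Of these, 1090, 509, 848 and 806 were Sertoli-like. They were picked by the UMIs of 14 Sertoli markers, so finding these markers in them is no separate evidence. Each of the 14 had UMIs in Sertoli-like cells of every library, but also in germ-like cells. Sertoli-like cells of the 2-day culture were shallow, with a median of 3418 UMIs against 8826, 13720 and 8991.5 in the libraries that follow in that order, and 391 of them had fewer than 2000 UMIs. In the same order 152, 29, 39 and 188 cells lay within 2-fold of the Sertoli cutoff on either side. In all Sertoli-like cells the summed Sertoli marker level was 20949 UMIs per 1000000 (CPM) after 2 days of culture, 23970 after 7 days, 31696 at 9 dpp and 39647 at 14 dpp. Single markers differed in both directions. From the 2-day culture to 14 dpp, Tsx was 6.24 and 572 CPM and Rhox5 3.35 and 228 CPM, but Sox9 was 528 and 245 CPM. Markers of other classes in Sertoli-like cells summed to 281 to 745 CPM for germ cells, highest at 14 dpp, and to 23.0 to 126 CPM for stromal cells, highest in the 2-day culture. Erythroid markers summed to 272 CPM at 14 dpp and to 0.981 to 19.5 CPM in the other 3 libraries. Their part in the results was not tested. When all cells were clustered, Sertoli cells of culture, 9 dpp and 14 dpp fell into largely separate clusters, so comparisons between them set cells of different clusters side by side. The main Sertoli clusters held 742 and 483 cells after 2 days of culture, 514 after 7 days, 866 at 9 dpp, and 737 and 347 at 14 dpp. The cluster of 347 was led by the germ cell genes Sycp1 and Sycp3 and had 111 CPM of Amh. Stromal and myoid cells fell likewise into 3 clusters found mainly in culture and 3 mainly in vivo. CPM is the UMI count of a gene over the cells of a class, scaled to a total of 1000000 UMIs. Because the 3′ kit tags each transcript at 1 end, CPM can be set side by side between genes without a correction for length. Intervals are exact 95% Poisson intervals and cover counting error only. A difference was called when it passed 2-fold, a log2 ratio of CPM + 1 beyond 1 in either direction. Folds are ratios of CPM. Where 4 values follow each other without names, they stand in the order 2-day culture, 7-day culture, 9 dpp, 14 dpp.

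The genes lie on 6 chromosomes of GRCm38 (GENCODE M21): Inha on chr1:75507077-75510366 and Inhbb on chr1:119415465-119422248, Acvr2a on chr2:48814109-48903269, Acvr2b on chr9:119402118-119434995, Amh on chr10:80805243-80807648, Inhba on chr13:16011851-16031621 and Fst on chr13:114452290-114458951, Acvr1b on chr15:101174067-101213684 and Amhr2 on chr15:102445367-102454633. No other gene overlaps them on the same strand, apart from a microRNA gene, Mir6962, within Acvr1b. Genes on the opposite strand overlap Inhba, Fst, Acvr2a and Acvr2b, and whether the authors' counting used the strand is not given in the sources used here. Promoters of 3 genes are shown because these genes marked different cells in the results below: Amhr2 was a Sertoli gene, Inhba a stromal gene, and Inhbb a Sertoli gene that was also counted in cultured endothelial cells. Each is the 250 bases before the start site, from RefSeq (GRCm38.p6), 5′ to 3′ on the strand of the gene.
Amhr2, chr15:102445117-102445366, plus strand: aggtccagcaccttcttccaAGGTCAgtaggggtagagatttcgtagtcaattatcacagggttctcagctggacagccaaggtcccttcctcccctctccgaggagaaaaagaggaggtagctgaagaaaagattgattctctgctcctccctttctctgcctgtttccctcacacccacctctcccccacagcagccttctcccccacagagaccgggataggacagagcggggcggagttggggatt
Inhba, chr13:16011601-16011850, plus strand: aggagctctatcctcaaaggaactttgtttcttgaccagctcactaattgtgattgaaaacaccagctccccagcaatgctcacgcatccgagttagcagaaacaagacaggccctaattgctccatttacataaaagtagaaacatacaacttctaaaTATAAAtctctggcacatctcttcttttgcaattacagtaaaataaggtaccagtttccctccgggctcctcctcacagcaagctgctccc
Inhbb, chr1:119422249-119422498, minus strand: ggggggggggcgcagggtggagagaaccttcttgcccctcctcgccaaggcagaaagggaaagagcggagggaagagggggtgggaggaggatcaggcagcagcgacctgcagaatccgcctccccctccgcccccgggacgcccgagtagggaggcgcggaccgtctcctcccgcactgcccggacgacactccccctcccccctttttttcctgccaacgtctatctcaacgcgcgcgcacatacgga
Capitals mark the matches found among 6 motifs searched on both strands. The Amhr2 window holds AGGTCA, letters bound by NR5A1 and related nuclear receptors, at positions -230 to -225 from the start, a motif found in 14% of 32536 promoter windows of this length. The Inhba window holds TATAAA, the core of a TATA box, at positions -91 to -86, as do 12.3% of windows. The Inhbb window holds none of them. SOX proteins bind AACAAT, found in 9.35% of windows, and GATA proteins bind letters such as AGATAA, found in 9.97%. The cAMP response element is TGACGTCA, found in 1.56%, and members of the AP-1 family bind TGANTCA, found in 6.73%. None of these 4 was found in the 3 windows. The share of G and C was 55.2% for Amhr2, 43.2% for Inhba and 68.0% for Inhbb, against a median of 52.4% over all windows. A match describes the letters and shows no binding.

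Amh was a Sertoli gene in every library and, with Fst, the member that differed most between them. In Sertoli-like cells its level was 34.7 CPM (30.4 to 39.5) after 2 days of culture, 142 (133 to 152.0) after 7 days, 769.9 (756 to 784) at 9 dpp and 181 (172 to 190) at 14 dpp. The 9 dpp library stood far above the other 3, and the 2-day culture far below them. Amh was thus 22.2-fold lower in the 2-day culture than at 9 dpp (19.4 to 25.4), a log2 ratio of -4.43. The 7-day culture was 1.27-fold lower than 14 dpp (1.17 to 1.38), which did not pass 2-fold. In vivo, Amh was 4.26-fold lower at 14 dpp than at 9 dpp (4.05 to 4.48). In culture the direction was the opposite, with a level 4.10-fold higher at 7 days than at 2 days (3.54 to 4.76). No library of 7 dpp testis, the age at which culture began, was analysed here, so the level from which the cultured cells started is not known.

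The lower Amh level was spread over the Sertoli-like cells. After each cell was thinned to 2000 UMIs, no Amh UMI was left in 92.6% of 699 cells after 2 days of culture, 78.1% of 488 after 7 days, 25.1% of 834 at 9 dpp and 69.4% of 741 at 14 dpp. The number of cells left out for having fewer UMIs was 391, 21, 14 and 65. Cells with 3 or more Amh UMIs made up 0.143%, 1.02%, 25.8% and 0.675%, and no thinned cell of any library but 9 dpp had more than 3, while the highest there had 10. Without thinning, 15.4%, 59.1%, 96.0% and 70.8% of Sertoli-like cells had an Amh UMI. Germ-like cells, which should lack Amh, had one in 0.0418%, 0.0408%, 0.878% and 0.328% of thinned cells. Before thinning, the median depths of all germ-like cells were 3503, 6392, 10897 and 6802 UMIs. In the 2-day culture the 483 cells of a shallow Sertoli cluster (median 1195 UMIs) had 65.1 CPM of Amh, and the 742 deeper cells 30.4 CPM, both under the level of each other library. With Sertoli-like cells of at least 2000 UMIs alone the log2 ratio of the 2-day culture to 9 dpp was -4.51.

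**Figure D1:**
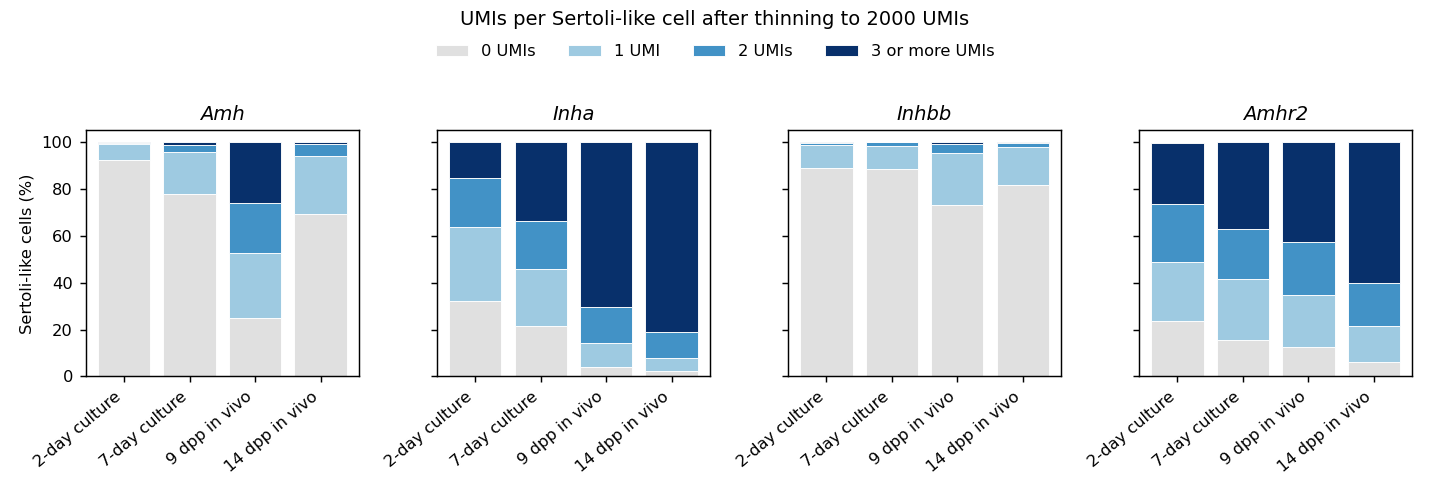
Share of Sertoli-like cells (%, bars) by the number of UMIs of Amh, Inha, Inhbb and Amhr2 left after each cell was thinned to 2000 UMIs, in the 4 libraries. Cells with no Amh UMI range from 25.1% at 9 dpp to 92.6% in the 2-day culture, whereas cells with no Inha UMI range from 2.29% at 14 dpp to 32.2% in the 2-day culture.

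Outside Sertoli-like cells Amh was near 0. Sertoli-like cells held 91.2%, 93.3%, 95.9% and 74.8% of the Amh UMIs of the kept cells, in the order 2-day culture, 7-day culture, 9 dpp and 14 dpp. The lower share at 14 dpp came with 22.6% in cells of mixed or no class, and 240 of the 279 mixed cells there had both Sertoli and germ markers past their cutoffs. Leydig-like cells had no Amh UMI in 3 libraries, with exact Poisson upper limits of 4.95, 5.51 and 2.29 CPM for the 2-day culture, 7-day culture and 14 dpp, and 3 UMIs at 9 dpp. Germ-like cells had 0.246, 0.242, 4.82 and 1.73 CPM.

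Inha, the inhibin alpha subunit, was the most abundant member in Sertoli-like cells in vivo and was lower in both cultures. Its level was 629 CPM (610 to 648) after 2 days of culture, 1014 (989 to 1040) after 7 days, 1847 (1825 to 1870) at 9 dpp and 2360 (2329 to 2391) at 14 dpp. Both in vivo libraries lay above both cultures, and within each kind the later library was higher. The 2-day culture was 2.94-fold lower than 9 dpp (2.84 to 3.04) and the 7-day culture 2.33-fold lower than 14 dpp (2.26 to 2.39). The change with time was smaller, 1.28-fold higher at 14 dpp than at 9 dpp and 1.61-fold higher at 7 than at 2 days of culture. After thinning, 67.8%, 78.3%, 96.0% and 97.7% of Sertoli-like cells kept an Inha UMI. Among germ-like cells it was 1.67%, 0.654%, 3.47% and 5.60%.

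Leydig-like cells, the androgen-producing cells of the interstitium, were the other cells with much Inha. There were only 94, 65, 96 and 117 of them. Their Inha level was 307 CPM (269 to 350) after 2 days of culture, 1398 (1310 to 1491) after 7 days, 318 (288 to 349) at 9 dpp and 655 (616 to 695) at 14 dpp. Here the 7-day culture was highest, 2.14-fold above 14 dpp (1.95 to 2.33) and 4.55-fold above the 2-day culture (3.94 to 5.28). The 7 pericyte markers summed to 97.9, 194, 66.8 and 65.3 CPM in Leydig-like cells, also highest in the 7-day culture. Their part in the Inha level was not tested. In Leydig-like cells 2.83, 8.83, 0.918 and 2.19 Inha UMIs were counted for each UMI of the Sertoli marker Aard. That ratio was 0.0707, 0.108, 0.181 and 0.320 in Sertoli-like cells and 0.104, 0.147, 0.236 and 0.317 in germ-like cells. The part of Sertoli RNA in the Inha level of Leydig-like and germ-like cells was not tested. The 5 Leydig-like cells with the most Inha held 37.6%, 38.9%, 43.7% and 41.7% of its UMIs, so these class levels rested on few cells. The median over cells followed the same order, at 85.1, 615, 106 and 199 CPM. Taking the classes from clusters put the 7-day culture at a log2 ratio of 0.91 above 14 dpp, under 2-fold.

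Inhbb, the beta B subunit, was the beta subunit of Sertoli-like cells. Its level was 58.2 CPM (52.5 to 64.3) after 2 days of culture, 61.1 (55.1 to 67.7) after 7 days, 149 (143 to 156) at 9 dpp and 102 (95.7 to 109) at 14 dpp. The intervals of the cultures overlapped each other and lay below both in vivo libraries. Against 9 dpp the 2-day culture was 2.56-fold lower (2.30 to 2.86), and the 7-day culture 1.67-fold lower than 14 dpp (1.48 to 1.89), short of 2-fold. In vivo, 14 dpp was 1.46-fold lower than 9 dpp. Sertoli-like cells thus had 10.8 Inha UMIs for each Inhbb UMI after 2 days of culture (9.73 to 12.0), 16.6 after 7 days (14.9 to 18.4), 12.4 in testes of 9 dpp (11.9 to 12.9) and 23.1 in those of 14 dpp (21.7 to 24.7). The later library of each kind had the higher ratio of alpha to beta B subunit. Sertoli-like cells held 80.1%, 81.8%, 94.0% and 73.8% of Inhbb UMIs.

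Inhba, the beta A subunit, was a gene of the interstitium and tubule wall. Stromal-like cells, which make the interstitial matrix, held 87.6%, 75.6%, 85.5% and 70.1% of its UMIs, and 30 UMIs were counted in all Sertoli-like cells together, too few for the minimum of 50 used for comparisons. Its stromal level was 85.6 CPM (79.8 to 91.8) after 2 days of culture, 137.0 (127 to 148) after 7 days, 277 (263 to 292) at 9 dpp and 125 (111 to 140.2) at 14 dpp. The 9 dpp library was highest and the 2-day culture lowest, the same order at the ends as Amh in Sertoli-like cells. The 2-day culture was 3.24-fold lower than 9 dpp (2.97 to 3.54), while the interval for the 7-day culture against 14 dpp, 0.956 to 1.26, included no difference. In vivo, the 14 dpp library was 2.22-fold lower than 9 dpp (1.96 to 2.53). Within stromal-like cells the 7 myoid markers summed to 1750, 1135, 618 and 580 CPM and the 7 pericyte markers to 323, 292, 90.8 and 59.4 CPM, both highest in the 2-day culture. The 10 endothelial markers summed to 63.8, 81.8, 160 and 112 CPM, highest at 9 dpp and lowest in the 2-day culture, like Inhba. The part of these lists in the Inhba level was not tested. Among stromal-like and myoid-like cells the level differed by cluster. In the 2-day culture 1270 cells led by Cxcl5, Spp1 and Ccl5 had 98.2 CPM, and 1158 cells led by Igfbp5, Plcxd3 and Itgbl1 had 45.0. Cells counted in myoid-like classes, the contractile cells around the tubule, had 40.8 (31.0 to 52.8), 41.0 (32.6 to 50.8), 33.9 (28.7 to 39.9) and 22.1 CPM (16.9 to 28.4).

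In Leydig-like cells Inhba stood at 33.5 CPM (21.7 to 49.5) after 2 days of culture, 167 (138 to 201) after 7 days, 51.6 (40.3 to 65.1) at 9 dpp and 23.0 (16.2 to 31.7) at 14 dpp. The 7-day culture lay above the other 3 without overlap, 7.27-fold above 14 dpp (4.98 to 10.9). This rested on 112 UMIs in 65 cells, and 5 cells held 40.2% of them. Leydig-like cells counted 8.36 Inha UMIs for each Inhba UMI in the 7-day culture (6.87 to 10.2) and 28.5 at 14 dpp (20.5 to 39.5). In vivo it was 2.24-fold lower at 14 dpp than at 9 dpp (1.49 to 3.43), a call that was lost in 3 of 9 alternative settings, each at a log2 ratio of -0.90. Summed stromal markers in these cells were 1874, 1676, 2377 and 2276 CPM. The 7 pericyte markers, of which 4 or 5 had UMIs, summed to 97.9, 194, 66.8 and 65.3 CPM, highest in the 7-day culture like Inhba. The part of either list in the Inhba level was not tested.

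Fst, the activin-binding protein, was counted in Sertoli-like, germ-like and stromal-like cells, in shares that differed between the libraries. In Sertoli-like cells it was 43.6 CPM (38.7 to 48.9) after 2 days of culture, 8.50 (6.35 to 11.2) after 7 days, 1.52 (0.954 to 2.30) at 9 dpp and 1.67 (0.957 to 2.72) at 14 dpp. The 2-day culture lay above all other libraries, and the 7-day culture above both in vivo libraries. Against 9 dpp the 2-day culture was 28.6-fold higher (18.5 to 46.4), on 286 against 22 UMIs. In these cells the 7 pericyte markers, of which 4 to 6 had UMIs, summed to 16.8, 2.45, 1.59 and 2.09 CPM, and the 7 Leydig markers to 55.9, 16.7, 23.5 and 19.7 CPM, both highest where Fst was highest. Their part in the Fst level was not tested. The 7-day culture was 5.08-fold higher than 14 dpp (2.85 to 9.52), on 52 against 16 UMIs, and 5.12-fold lower than the 2-day culture (3.8 to 7.03). With a pseudocount of 10 CPM the ratio of the 7-day culture to 14 dpp was 0.66 on the log2 scale, under 2-fold. After thinning, 6.44% of Sertoli-like cells in the 2-day culture had an Fst UMI (4.73 to 8.52) and 0.820%, 0.240% and 0.270% in the libraries that follow. Germ-like cells had one in 1.09%, 0.654%, 3.03% and 1.17%, and Leydig-like cells of the 2-day culture held 4 Fst UMIs, a level of 5.37 CPM (1.46 to 13.7). Sertoli-like cells therefore lay above the germ-like share in the 2-day culture and held 45.2% of its Fst UMIs, against 28.6% after 7 days, 3.94% at 9 dpp and 3.65% at 14 dpp. The deeper Sertoli cluster of the 2-day culture had 48.2 CPM and the shallow cluster 19.7.

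Germ-like cells held most Fst UMIs in 3 of the 4 libraries, with 52.7% after 7 days of culture, 81.2% at 9 dpp and 69.4% at 14 dpp, but 13.6% after 2 days. Its level was highest in 1 germ cluster, led by Sdc4, Egr4, Foxf1, Upp1 and Nanos3, where it was 55.5 CPM after 2 days of culture, 30.9 after 7 days, 37.3 at 9 dpp and 37.7 at 14 dpp. In the other germ clusters with at least 50 cells the level ran from 0 to 9.32 CPM. Over all germ-like cells the level was 7.06 CPM (5.65 to 8.72), 4.64 (3.76 to 5.66), 14.9 (13.6 to 16.3) and 8.90 (7.92 to 9.95), lower in each culture than in its in vivo partner. The cluster held 24, 74, 367 and 241 Fst UMIs, while in the 2-day culture a cluster led by Saa3, Gm10260 and Ccl2 held more, 59 UMIs. There were 89 cells of the Nanos3 cluster after 2 days of culture, 169 after 7 days, 633 at 9 dpp and 462 at 14 dpp.

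Stromal-like cells also had Fst, at 20.9 CPM (18.1 to 24.1) after 2 days of culture, 5.03 (3.28 to 7.36) after 7 days, 13.2 (10.2 to 16.7) at 9 dpp and 40.2 (32.4 to 49.3) at 14 dpp. The order over time was opposite in the 2 settings. The level at 14 dpp was 3.05-fold above 9 dpp (2.20 to 4.23), and the 7-day culture was 4.17-fold below the 2-day culture (2.76 to 6.54) and 7.99-fold below 14 dpp (5.12 to 12.9). In stromal-like cells the 7 Leydig markers summed to 47.1, 22.2, 76.3 and 139 CPM. Like Fst they were highest at 14 dpp and lowest in the 7-day culture, but unlike Fst they were higher at 9 dpp than in the 2-day culture. Their part in the Fst level was not tested. For each Fst UMI, stromal-like cells counted 4.09 Inhba UMIs after 2 days of culture (3.50 to 4.78), 27.3 after 7 days (18.4 to 40.3), 21.1 in testes of 9 dpp (16.5 to 26.9) and 3.11 in those of 14 dpp (2.46 to 3.93). The Cxcl5, Spp1 and Ccl5 cluster of the 2-day culture had 29.2 CPM of Fst and the Igfbp5 cluster 1.31.

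**Figure D2:**
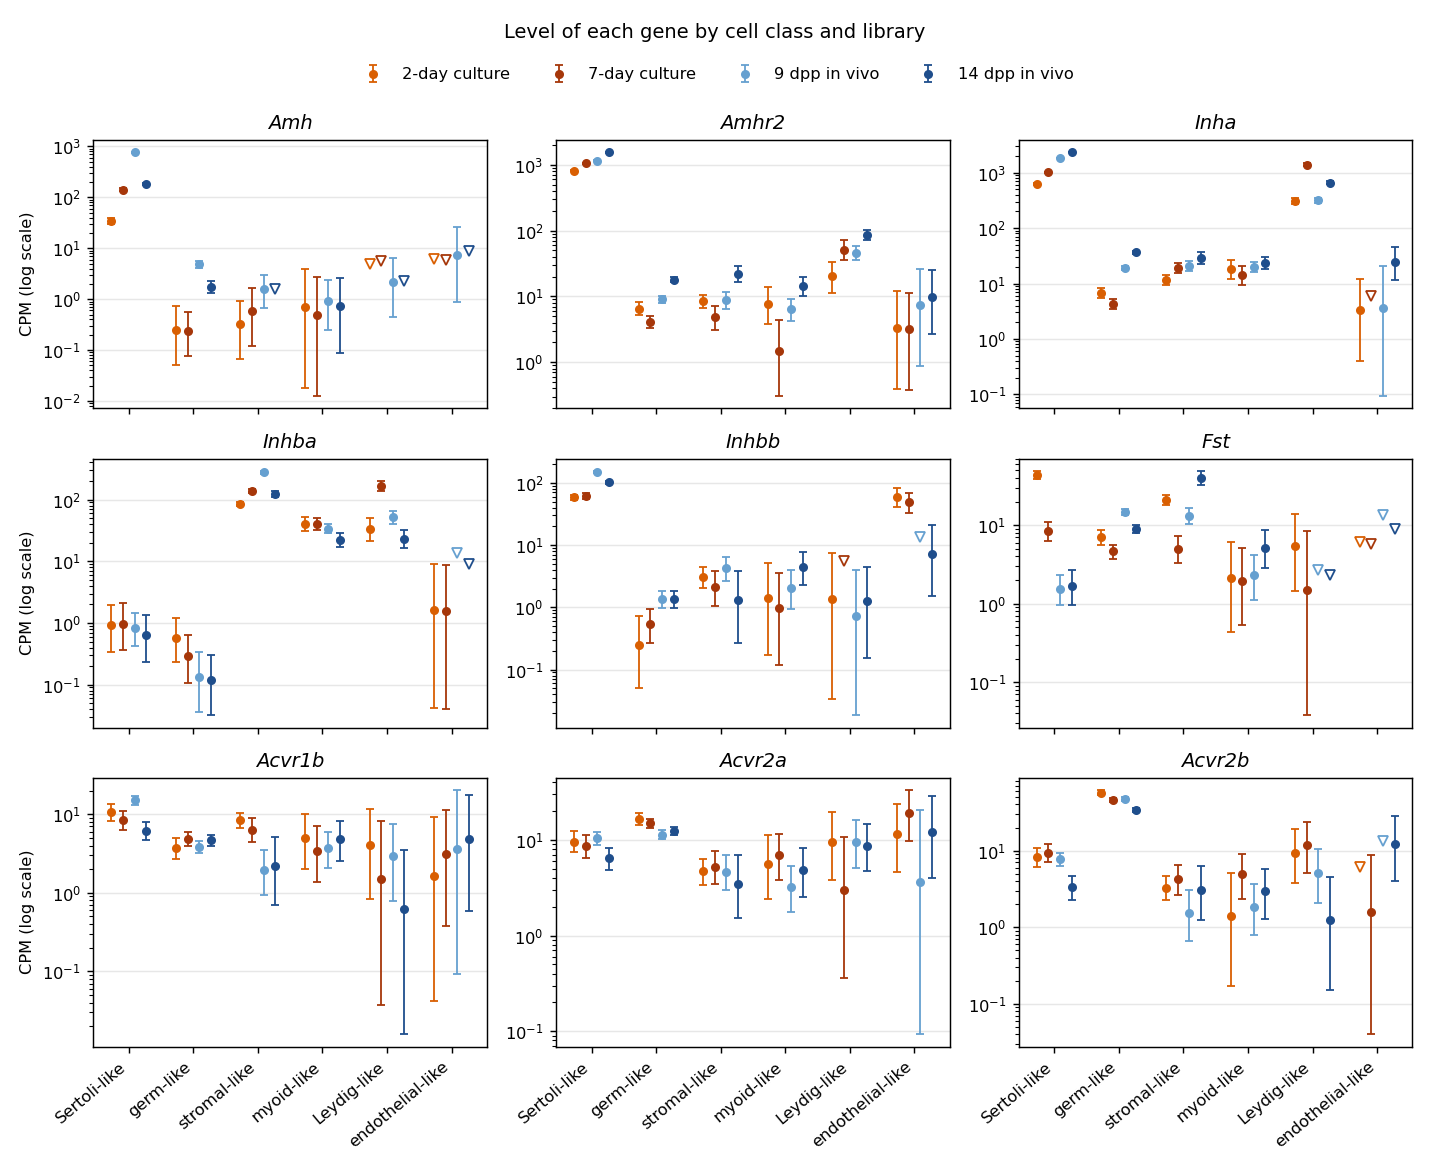
Level of each of the 9 genes (CPM, log scale) in 6 cell classes, 1 point per library with its exact 95% Poisson interval, and open triangles at the upper limit of that interval where no UMI was counted. Amh, Amhr2, Inha and Inhbb are highest in Sertoli-like cells in vivo, Inhba in stromal-like cells at 9 dpp (277 CPM) and Acvr2b in germ-like cells, while Fst in Sertoli-like cells is highest in the 2-day culture.

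Amhr2, the type II receptor of AMH, was a Sertoli gene with much smaller differences than its ligand. Its level in Sertoli-like cells was 816 CPM (794 to 838) after 2 days of culture, 1051 (1025 to 1077) after 7 days, 1147 (1130 to 1165) at 9 dpp and 1553 (1528 to 1579) at 14 dpp. No pair of intervals overlapped, but no comparison passed 2-fold. The 2-day culture was 1.41-fold lower than 9 dpp (1.36 to 1.45) and the 7-day culture 1.48-fold lower than 14 dpp (1.44 to 1.52). The receptor was 1.35-fold higher at 14 dpp than at 9 dpp, while the ligand was lower. For each Amh UMI, Sertoli-like cells had 23.5 Amhr2 UMIs after 2 days of culture (20.6 to 26.8), 7.39 after 7 days (6.88 to 7.93), 1.49 in testes of 9 dpp (1.45 to 1.53) and 8.59 in those of 14 dpp (8.17 to 9.03). Leydig-like cells had 20.1, 50.8, 46.5 and 86.4 CPM of Amhr2, on 15, 34, 64 and 139 UMIs. The number of Amhr2 UMIs for each Aard UMI was 0.185, 0.321, 0.134 and 0.290 there, against 0.0917, 0.112, 0.112 and 0.211 in Sertoli-like cells. In germ-like cells it was 0.099, 0.14, 0.114 and 0.156. The part of Sertoli RNA in the Amhr2 level of Leydig-like and germ-like cells was not tested.

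The activin receptors were low in Sertoli-like cells, between 3.35 and 15.2 CPM. Acvr1b, the type I receptor, was 10.7 CPM (8.31 to 13.5) after 2 days of culture, 8.50 (6.35 to 11.2) after 7 days, 15.2 (13.2 to 17.3) at 9 dpp and 6.17 (4.70 to 7.97) at 14 dpp. It was 2.45-fold lower at 14 dpp than at 9 dpp (1.83 to 3.33), and neither culture differed 2-fold from its in vivo partner. Acvr2a, a type II receptor, stayed within 2-fold in all 4 comparisons, at 9.59 CPM (7.37 to 12.3), 8.66 (6.49 to 11.3), 10.4 (8.78 to 12.2) and 6.38 (4.88 to 8.20). With free RNA subtracted its log2 ratio at 14 dpp against 9 dpp was -1.07, past 2-fold. Acvr2b, the other type II receptor, was 8.22 CPM (6.18 to 10.7), 9.32 (7.06 to 12.1), 7.68 (6.32 to 9.25) and 3.35 (2.29 to 4.73), lowest at 14 dpp. The 7-day culture was 2.78-fold above 14 dpp (1.77 to 4.43), on 57 against 32 UMIs. With a pseudocount of 10 CPM that log2 ratio was 0.53, under 2-fold, and the one of Acvr1b over time in vivo was -0.64. At 14 dpp Acvr2b was 2.29-fold lower than at 9 dpp in CPM (1.54 to 3.51), but its log2 ratio of CPM + 1 stayed just within 2-fold, as it did in 7 of 12 alternative settings.

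Germ-like cells were where Acvr2b was highest. They held 86.8%, 89.6%, 90.0% and 93.2% of its UMIs, at 57.2 CPM (53.1 to 61.7) after 2 days of culture, 45.7 (42.8 to 48.7) after 7 days, 47.0 (44.6 to 49.5) at 9 dpp and 33.8 (31.9 to 35.8) at 14 dpp. The library at 14 dpp was lowest and the 2-day culture highest, and the largest of these differences between compared libraries was 1.39-fold. For each Acvr2a UMI germ-like cells had 3.45, 3.08, 4.14 and 2.74 Acvr2b UMIs, against 0.857, 1.08, 0.740 and 0.525 in Sertoli-like cells. Within germ-like cells Acvr2b differed by cluster. It was 59.4 CPM at 9 dpp and 50.3 at 14 dpp in the cluster led by P3h3, Olfr655 and Tmem267, and 1.96 and 2.57 CPM, on 1 and 5 UMIs, in the cluster led by Pbx3, H2-D1 and Fbxo47. That cluster had 10.9 CPM after 2 days of culture (5.01 to 20.8) and 7.63 after 7 days (3.49 to 14.5). The highest levels were in a culture cluster led by Gm42418 and Gm26917, at 110 CPM after 2 days (83.4 to 143) and 87.3 after 7 days (73.1 to 104). In the cluster led by Ldhc, Fabp9 and Meig1, genes of pachytene spermatocytes, it was 10.4 CPM in the 7-day culture and 3.49 at 14 dpp. Acvr2a did not follow that order: in the Pbx3 cluster it was 27.5 CPM at 9 dpp and 30.9 at 14 dpp, above the 10.9 and 8.80 CPM of the P3h3 cluster. Clusters are groups of the same cells on the same data, so these values are a description.

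Acvr1b in stromal-like cells was higher in culture, at 8.39 CPM (6.65 to 10.5) in the 2-day culture and 6.38 (4.39 to 8.96) in the 7-day culture, against 1.94 (0.929 to 3.56) at 9 dpp and 2.18 (0.709 to 5.09) at 14 dpp. The in vivo values rested on 10 and 5 UMIs, and the myoid and pericyte marker sums of these cells, given with Inhba, were also higher in both cultures. Their part in the Acvr1b level was not tested. The 2-day culture was 4.33-fold above 9 dpp (2.24 to 9.39) and the 7-day culture 2.92-fold above 14 dpp (1.13 to 9.59).

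Counted together, 8 of the 9 genes had at least 50 UMIs in Sertoli-like cells and were compared, with 11965 genes in all. In the 2-day culture against 9 dpp, Fst was past 2-fold higher and Amh, Inha and Inhbb past 2-fold lower, against 6.54% of all genes higher and 6.15% lower, and the median log2 ratio was -0.48 against -0.10 for all genes. In the 7-day culture against 14 dpp, Fst and Acvr2b were higher and Inha lower, against 10.1% of all genes higher and 7.26% lower, with a median of 0.02 against 0.01. At 14 dpp against 9 dpp none was higher and Amh and Acvr1b were lower, against 4.66% and 8.35% of all genes, with a median of -0.58 against -0.14. In the 7-day against the 2-day culture Amh was higher and Fst lower, against 2.11% and 3.95% of all genes, with a median of 0.12 against -0.02. The comparisons share libraries, so a gene high in 1 library moves several of them. Inha and Fst were the members past 2-fold in both culture pairs, in opposite directions.

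**Figure D3:**
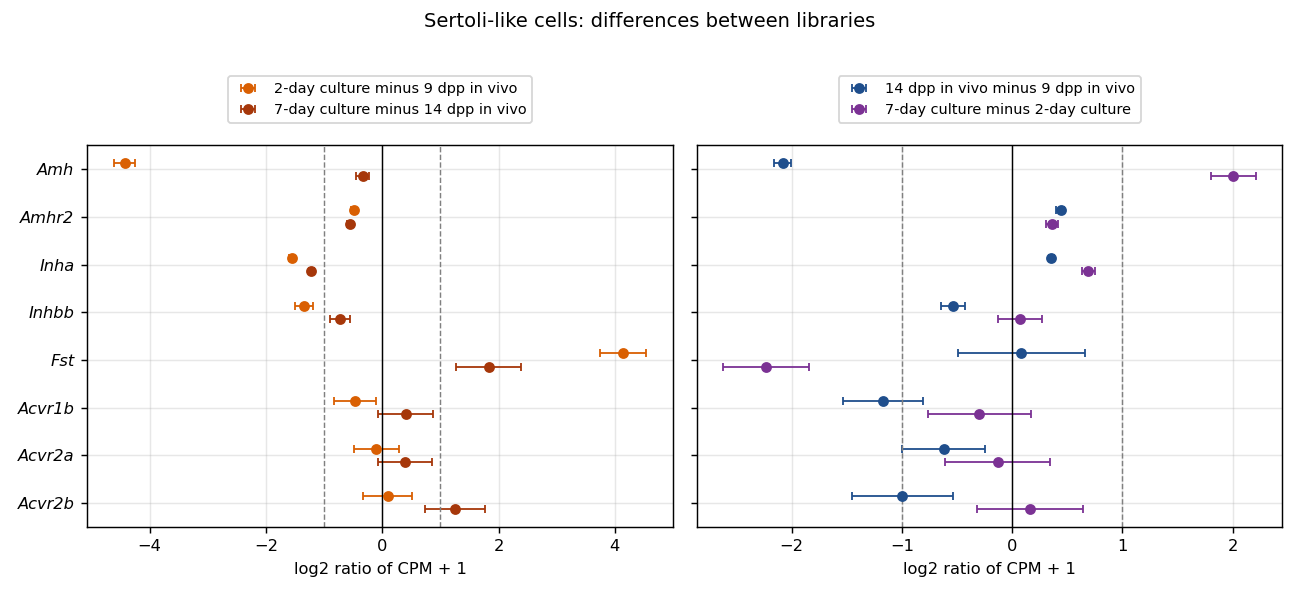
Log2 ratio of CPM + 1 in Sertoli-like cells for 8 genes, with 95% intervals for counting error, in both culture comparisons (left) and both comparisons over time (right); dashed lines mark 2-fold. Amh lies at -4.43 for the 2-day and -0.34 for the 7-day culture, and at -2.08 over time in vivo and 2.00 over time in culture.

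The other genes of the pathway were read from 8 lists of 70 genes, 48 of which had at least 50 UMIs in Sertoli-like cells. In the 2-day culture against 9 dpp 4 of them were past 2-fold higher and 7 lower (8.33% and 14.6%). In the 7-day culture against 14 dpp it was 10 and 2 (20.8% and 4.17%), at 14 dpp against 9 dpp 3 and 14 (6.25% and 29.2%), and in the 7-day against the 2-day culture 5 and 5. The shares over all genes were those given above.

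Among other ligands, 4 of 14 genes were countable, with none lower in either culture pair, 2 higher in the 2-day pair and 3 in the other. Bmp6, a BMP ligand, was 10.4 CPM after 2 days of culture, 5.39 after 7 days, 1.52 at 9 dpp and 0.105 at 14 dpp, with log2 ratios of 2.17 and 2.53 in the 2 culture pairs. In Sertoli-like cells of 14 dpp 3 UMIs make 0.314 CPM, so Bmp6 lay at the floor there. Its ratio of 2.53 therefore rests in part on the 1 CPM added to each level. The ratios of the listed ligands were not recomputed in alternative settings. Tgfb2, a TGF-beta ligand, was 13.4, 8.01, 2.08 and 1.78 CPM, with ratios of 2.23 and 1.70. Tgfb3, the ligand with the highest mean level of the list, was 57.9, 73.2, 33.3 and 21.9 CPM, with ratios of 0.78 and 1.70. Tgfb1, the remaining countable ligand, was 16.9, 31.2, 18.1 and 46.4 CPM, with ratios of -0.09 and -0.56. Bmp6 and Tgfb2 were thus past 2-fold higher in the 2-day pair, where Amh, Inha and Inhbb were past 2-fold lower.

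Of the other receptors, 5 of 12 were countable and none was past 2-fold in either culture pair, while Acvrl1 was lower at 14 dpp than at 9 dpp. Bmpr1a, a type I receptor through which AMH can signal and the highest of the list, was 40.1, 47.6, 51.4 and 38.8 CPM. Of the inhibitors, 6 of 10 were countable, and Fstl1, a secreted protein of the follistatin family, was past 2-fold higher in the 2-day pair and past 2-fold lower in the 7-day pair. Fstl3, a relative of follistatin that also binds activin and the highest of the list, was 117, 77.6, 105 and 86.4 CPM and stayed within 2-fold in all 4 comparisons, unlike Fst.

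Of the SMAD proteins, 7 of 8 were countable. Smad1, a transducer of AMH and BMP signals, was 25.0 CPM after 2 days of culture, 17.2 after 7 days, 9.06 at 9 dpp and 3.66 at 14 dpp, past 2-fold higher in both culture pairs at 1.37 and 1.96 on the log2 scale. Smad3 and Smad7 were lower in the 2-day pair and Smad6 was higher in the 7-day pair. Smad7, an inhibitory SMAD and the highest of the list, was 22.7, 51.7, 53.5 and 25.6 CPM. The targets of SMAD1, SMAD5 and SMAD9 did not all follow Smad1. Id3, a gene that BMP-type signals raise, was 14.0 CPM after 2 days of culture, 31.1 after 7 days, 70.5 at 9 dpp and 172 at 14 dpp, with ratios of -2.25 and -2.43. Id1, Id2 and Id4 stayed within 2-fold in both culture pairs, and Id2, the highest, was 168, 214, 198 and 263 CPM. In stromal-like and myoid-like cells together Id3 was 456, 1036, 512 and 936 CPM, with ratios of -0.17 and 0.15 in the culture pairs.

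Among 8 intracellular regulators Pmepa1 was lower in the 2-day pair, Ski and Skil were higher in the 7-day pair, and all 3 were lower at 14 dpp than at 9 dpp. Fkbp1a, which binds type I receptors and was the highest of that list, was 986, 769, 1005 and 768 CPM. Among 10 Sertoli regulators of Amh and Inha, Fshr, the receptor for follicle-stimulating hormone, was lower in the 2-day pair and Sox9 was higher in the 7-day pair. Wt1, a transcription factor of Sertoli cells and the highest of the list, was 564, 518, 432 and 377 CPM. Sox9, which switches on Amh in the fetal testis and is one of the Sertoli markers used here, was 528, 503, 378 and 245 CPM. The part of Sox9 in the Amh level was not tested. Among 4 genes for subunit processing, Furin, a protease that cuts TGF-beta family precursors, was the highest at 44.2, 51.7, 57.8 and 49.4 CPM. Pcsk6 was lower in the 2-day pair and Bmp1 higher in the 7-day pair.

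**Figure D4:**
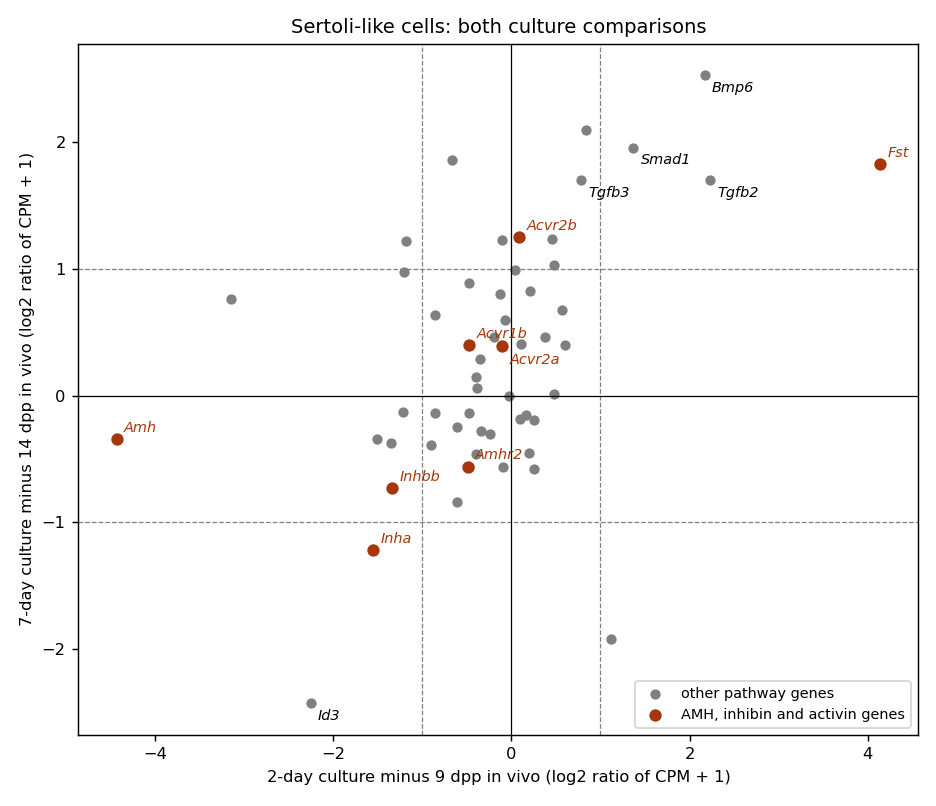
Log2 ratio of CPM + 1 in Sertoli-like cells for 8 of the 9 genes (red) and 48 other pathway genes (grey), with the 2-day culture against 9 dpp on the x axis and the 7-day culture against 14 dpp on the y axis; dashed lines mark 2-fold. Fst, Bmp6, Tgfb2 and Smad1 lie in the upper right and Inha and Id3 in the lower left, and Amh lies at -4.43 on x but -0.34 on y.

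The genes whose levels ran most like each member were found over 16 points, 4 cell classes in 4 libraries, among 13769 genes, by Pearson's r of log2(CPM + 1). The points share libraries and each class is distinct, so r mainly reflects which class a gene marks and is given as a description. Amh was most like Gm40614 and Tbc1d30 (0.976 each) and Fshr (0.973), and Fshr stood at 6.55, 9.97, 20.5 and 12.9 CPM in Sertoli-like cells. Like Amh, Fshr was lowest in the 2-day culture and highest at 9 dpp, though over a smaller range. Amhr2 was most like Aass (0.981), Tnni3 and Slc7a4 (0.979 each). Inha was most like Serpina5 (0.972), Zbtb7b (0.968) and Clu (0.959). Inhbb was most like Slc4a2 (0.986), Stra6 (0.982) and Tspyl2 (0.978). Inhba was most like Tmem45a (0.982), Hoxc6 (0.980) and Boc (0.979). Fst was less like any gene than the other 5 members compared in this way, with Syk (0.848), Arhgef2 (0.825) and Fmo5 (0.814) nearest. Syk was 8.83, 6.70, 2.14 and 0.942 CPM in Sertoli-like cells.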

How the data were processed

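The authors deposited raw UMI counts per gene and barcode, 1 matrix per library, made with Cell Ranger 3.0.2 on mm10 per the submitters' processing notes, from Chromium Single Cell 3′ v2 libraries per the labels. The deposited barcodes numbered 7710, 5149, 5465 and 6527 and held 34491701, 38632065, 60829941 and 58369264 UMIs (2-day culture, 7-day culture, 9 dpp, 14 dpp). Barcodes under 500 genes or above 20% mitochondrial UMIs were dropped, and Scrublet calls (scanpy 1.11.5, expected rate 6%; 253, 93, 143 and 143 barcodes) were removed. Library pairs shared 29 to 75 cell barcodes.

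Each cell was given the class whose markers passed a cutoff per 10000 UMIs (50 for Sertoli, 15 for germ, 20 for Leydig and for stromal or myoid, 30 for pericyte, 15 for endothelial, 20 for macrophage; at least 3 marker UMIs). A cell was mixed when a second class passed its cutoff at over 1 in 3 of the first's relative score. The cutoffs were set in the gaps of the marker distributions after these were seen, and none of the 9 genes is a marker. UMIs were summed over the cells of a class, and log2 ratios are of CPM + 1, with a minimum of 50 UMIs per gene summed across libraries. Thinning drew 2000 UMIs per cell. Intervals on shares of cells are exact Clopper-Pearson (95%). The ratio and its interval were tested on simulated Poisson counts only. Such counts follow the model of the interval and leave out variation between cells, so that test does not bear on such variation. Clusters are Leiden clusters (leidenalg 0.10.2) of all libraries, computed without the 9 genes. Alternatives were pseudocounts of 0.1 and 10 CPM, classes from clusters, stricter marker and cell filters, doublet calls kept, cells weighted equally, free RNA subtracted, no UMI minimum, Sertoli-like cells without excess germ markers, and TMM factors (edgeR 4.0.16). Positions are from GENCODE M21 on GRCm38 and promoter windows from RefSeq, where 7 of the 9 genes have an entry. For Inha, Acvr1b and Acvr2b the window overlaps the gene's own exons in GENCODE, and Acvr2a is not shown.

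Pathway genes are named where they passed 2-fold with the same sign in both culture pairs or had the highest mean CPM of their list in Sertoli-like cells, and some other list members where they passed 2-fold in a comparison; 1 gene of the lists is not reported here by name. The genes described, the lists and the markers were chosen with earlier results of these data known.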

Additional observations from a re-analysis of the deposited data

Results flagged for a closer look

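With 1 library per group, none of these differences was tested, and each is a difference of log2 ratios of CPM + 1. Amh in Sertoli-like cells went in opposite directions with time, -2.08 from 9 to 14 dpp in vivo and 2.00 from 2 to 7 days of culture, a gap of 4.08. Inha in the 7-day culture against 14 dpp was lower in Sertoli-like cells (-1.22) and higher in Leydig-like cells (1.09), a gap of 2.31. In germ-like cells, where Inha UMIs per Aard UMI were 0.147 and 0.317 against 0.108 and 0.320 in Sertoli-like cells, the same ratio was -2.82, a gap of 3.91 from Leydig-like cells. Inhba in Leydig-like cells was lower with time in vivo (-1.13) and higher with time in culture (2.28), a gap of 3.41, and the in vivo ratio was -0.90, under 2-fold, in 3 of 9 alternative settings. Fst in stromal-like and myoid-like cells together was higher with time in vivo (1.27) and lower with time in culture (-1.91), a gap of -3.18. In the 7-day culture against 14 dpp Fst was higher in Sertoli-like cells (1.83) and lower in stromal-like and myoid-like cells (-2.10), a gap of -3.93.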

How the results depend on the processing

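No paired analysis was possible because each group has 1 library, and no replicate was left out. Ratios were recomputed for all 9 genes in Sertoli-like cells, for Inhba and Fst in stromal-like cells and for Amhr2, Inha and Inhba in Leydig-like cells. Apart from Amh, given next, 342 of 384 recomputed ratios in Sertoli-like cells, 50 of 56 in stromal-like cells and 98 of 108 in Leydig-like cells stayed within the counting interval of the value reported. Among the ratios recomputed, none past 2-fold changed sign. Ratios in germ-like cells, in stromal-like and myoid-like cells together, and of Acvr1b in stromal-like cells were not recomputed. Restricting Sertoli-like cells to at least 2000 UMIs and adding cells with Sertoli and germ markers were chosen after seeing the data.

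Amh in Sertoli-like cells at 14 dpp against 9 dpp was -2.27 with classes from clusters, -2.22 with each cell weighted equally, -1.99 with TMM factors and -2.22 with cells of Sertoli and germ markers added. In the 2-day culture against 9 dpp it was -4.12 with a pseudocount of 10 CPM and -4.13 with cells weighted equally. In the 7-day culture against 14 dpp it was -0.21 with classes from clusters, with a stricter cell filter and with the mixed cells added. In the 7-day against the 2-day culture it was 1.77 with the larger pseudocount and 1.66 with cells weighted equally. The share of Sertoli-like cells with an Amh UMI was 15.4%, 59.1%, 96.0% and 70.8% without thinning.

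With a pseudocount of 10 CPM, 0 members were past 2-fold higher in the 7-day culture against 14 dpp and 1 lower at 14 dpp against 9 dpp. With free RNA subtracted 4 were lower there. Counts over all genes past 2-fold (higher, then lower) with the larger pseudocount were 311 and 207 for the 2-day culture against 9 dpp, 401 and 310 for the 7-day culture against 14 dpp, 196 and 238 at 14 against 9 dpp, and 57 and 124 in the 7-day against the 2-day culture. With free RNA subtracted they were 1921 and 1953, 2447 and 2230, 1525 and 2237, and 1250 and 1806. Classes from clusters gave 877 higher at 14 against 9 dpp and 405 in the 7-day against the 2-day culture. For that last comparison a pseudocount of 0.1 CPM gave 421 higher, and equal weights gave 414 higher and 719 lower. For the alternatives whose construction does not show it, the cause was not tested. Depth limits the activin receptors in Sertoli-like cells, which rested on 32 to 219 UMIs per gene and library.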

Other observations

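Some classes were too small for a comparison. Endothelial-like cells numbered 50 and 23 in culture for 2 and 7 days, 19 at 9 dpp and 26 at 14 dpp. Inhbb in them was 59.3 CPM (41.5 to 82.0) in the 2-day culture and 49.0 (33.3 to 69.5) in the 7-day culture, on 36 and 31 UMIs. At 9 dpp no Inhbb UMI was counted, with an exact Poisson upper limit of 13.5 CPM, and at 14 dpp 3 UMIs gave 7.32 CPM (1.51 to 21.4). Fst had no UMI in these cells in any library. Macrophage-like cells numbered 10, 18, 29 and 48 and had 2, 11, 2 and 1 Inhba UMIs. Pericyte-like cells numbered 28, 14, 42 and 54, and 6 Fst UMIs were counted in the 2-day culture, all of them in 1 of its 28 cells.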
